A study of Xenopus laevis with 18 samples.

Results

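A set of 60 gene models of the African clawed frog, Xenopus laevis, stood at a substantial level in egg and blastula, at a low level from late gastrula to mid neurula, and at a substantial level again in the tailbud embryo. The 60 were chosen from 31357 models by their own TPM (a length-corrected measure of the portion of a library's transcripts that a model takes up). The reference level of each model, called B here, is its mean over stages 8, 8.5 and 9. A member had a B of 30 TPM or more, a level at stage 0 within 3-fold of B, a mean over stages 12, 14 and 16 (the trough) of at most 25% of B, and a mean over stages 23, 26, 30 and 33 of at least 50% of B. These bounds left 6793, 4568, 1422 and 60 models in turn, so the members were 4.22% of the models that met all bounds but the last. The levels at those 11 stages are therefore a description of how the members were picked, and "lost" and "restored" are names for the bounds. Stages 2, 6, 6.5, 7, 10, 18 and 20 were not used in the choice.

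Each library was made from poly(A)-selected RNA of whole, untreated J strain embryos that were reared in dilute MMR saline with gentamycin and frozen at the wanted stage. There were 18 libraries, 1 per Nieuwkoop-Faber stage, 5 of them early (stages 0 to 7, namely 0, 2, 6, 6.5 and 7), 3 from blastulae (8, 8.5, 9), 2 from gastrulae (10, 12), 4 from neurulae (14, 16, 18, 20) and 4 from tailbud embryos (23, 26, 30, 33). No stage was replicated, so a value stands for 1 library and has no replicate error, and the labels do not say whether embryos were pooled or came from 1 clutch. The series compares how mRNA and protein levels move through vertebrate development; only its poly(A) RNA is analysed here.

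A frog egg is loaded with maternal mRNA that directs the first divisions while the embryo's own genome is nearly silent. At the mid-blastula transition broad zygotic transcription starts and many maternal messages are then degraded, while some genes are transcribed again later from the embryo's genome. Stored maternal mRNAs also gain and lose poly(A) tail without any change in their number, and a library selected by the tail can register that as a change in level. In a whole embryo, fewer cells that contain an RNA and less RNA per cell cannot be told apart.

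The model identifiers are the authors' own and 0 of them occurred in the reference table of gene names, so no symbol, function or sequence is given for any member. The deposited TPM carries no sequencing depth, and exact zeros are described as listed at 0. Of the 18 columns, 6 carry an unexplained suffix rr, those of stages 0, 20, 23, 26, 30 and 33. The low stages of the rule thus lay in columns without the suffix and the tailbud stages in columns with it, and stage and suffix cannot be told apart between stages 18 and 20. A pair of models that is on in some libraries and listed at 0 in the others took up 21.0, 42.7, 19.0, 36.8 and 3.82% of the TPM of stages 2, 6, 8.5, 10 and 30, which lowers the TPM of all other models there. Spike-in RNAs, synthetic RNAs added to the samples, made up 11.2% of the TPM at stage 0 and 1.49% at stage 33. As portions of all spike-in RNA, 37 abundant spike-ins varied with a median SD of 0.31 (log2) across libraries. The spike-in values were used as deposited. Their decimals point to a rescaling in classes from stage 6 on, which this SD includes.

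The selection, plotted as tailbud against trough level, cut through a continuous cloud of models. Among the 1422 models that met the bounds on B, stage 0 and trough, 475 had a tailbud mean under 10% of B, 490 lay from 10 to 20%, 56 from 40 to 50%, and 27 of the members from 50 to 60%. Only 6 reached 100% or more. XeXenL6RMv10050704m was just inside the tailbud bound, with 21.8 TPM or 50.2% of its B of 43.4 TPM, while XeXenL6RMv10000554m was just outside it at 49.8% of 30.5 TPM. On the trough bound XeXenL6RMv10000594m, at 24.6% of B, was inside and XeXenL6RMv10015760m, at 25.4%, was outside. On the bound of 30 TPM XeXenL6RMv10042670m had a B of 30.4 TPM and XeXenL6RMv10019511m, with a tailbud mean of 265% of B, missed it at 29.9 TPM.

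**Figure D1:**
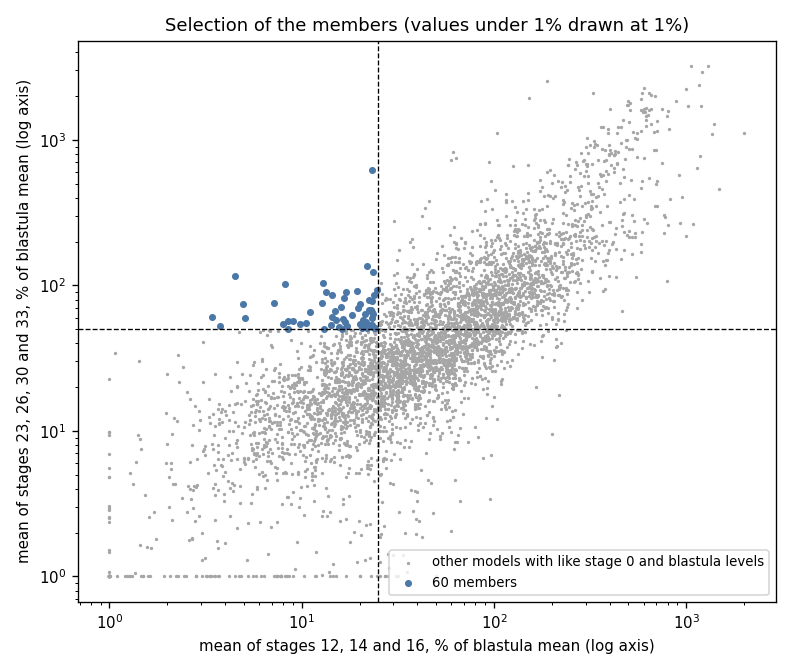
Mean of stages 12, 14 and 16 against mean of stages 23, 26, 30 and 33, each in percent of the blastula mean B on a log axis, for the 4568 models with B of 30 TPM or more and stage 0 within 3-fold of B. Each point is a model, dashed lines are the bounds of 25% and 50%, and the 60 members (blue) fill the upper left corner, most of them close to a bound.

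Most members were of moderate abundance. B ranged from 30.4 to 315 TPM with a median of 43.1 TPM, and 40 of the 60 lay under 50 TPM while 5 reached 100 TPM. Their trough mean ran from 3.41% to 24.6% of B (median 17.1%) and their tailbud mean from 50.2% to 617% (median 61.5%), so that 54 of the 60 stayed under B in the tailbud. The tailbud mean was 2.12 to 26.7 times the trough mean, with a median of 3.78. Together the members held 0.413, 0.0572 and 0.516% of the gene-model TPM of stages 8, 14 and 33, but a single model, XeXenL6RMv10025749m, supplied 2578 of the 5100 TPM at stage 33.

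Relative to B, the median member stood at 84.1, 84.0, 38.2, 104 and 106% in the 5 early libraries (stages 0, 2, 6, 6.5, 7) and at 114, 85.4 and 102% in the 3 blastula libraries. The low value at stage 6 was common to models at large: 59 of the 60 members stood lower at stage 6 than at both stages 2 and 6.5, and so did 95.3% of the 6793 models with a B of 30 TPM or more. The median member then stood at 36.5 and 15.5% of B in the gastrula (stages 10 and 12) and at 15.5, 18.9, 24.7 and 36.4% in the neurula (stages 14, 16, 18, 20). Tailbud medians were 57.6, 60.7, 62.5 and 67.4% for stages 23, 26, 30 and 33. The levels thus formed a broad valley, with a low point at stage 14 in 30 members, at stage 12 in 22 and at stage 16 in 8, counted over those 3 stages.

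**Figure D2:**
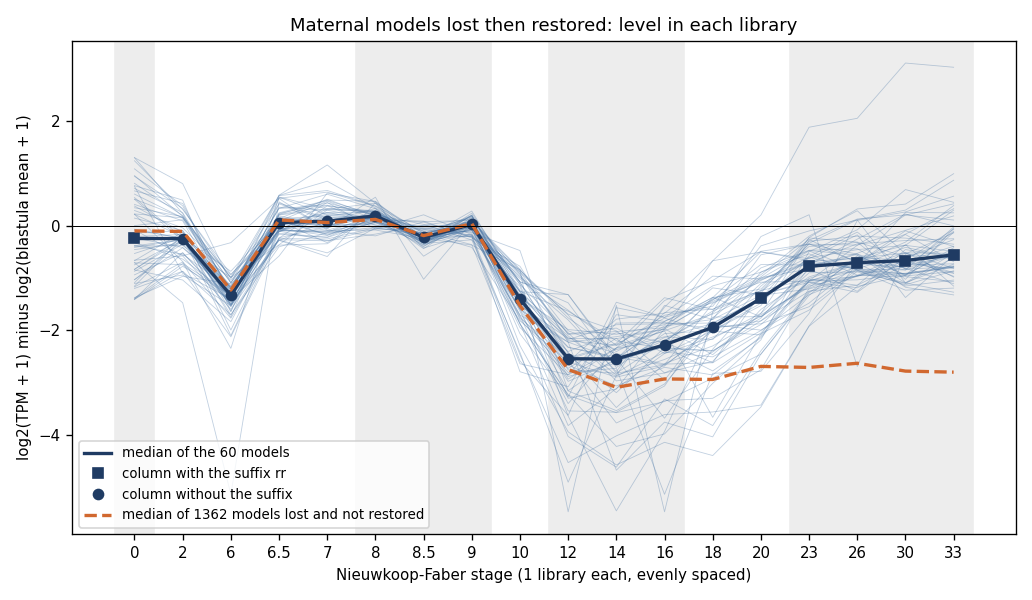
Level of each of the 60 members in each of the 18 libraries, as log2(TPM + 1) minus log2(B + 1), with the members' median (dark line; squares are columns with the suffix rr, circles the others) and the median of the 1362 models lost and not restored (dashed). The grey bands mark the stages used to choose the members; the 2 medians lie close together up to stage 10 and stand at -0.56 and -2.80 at stage 33.

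Few models with a B of 30 TPM or more were listed at 0 in the trough, 39, 68 and 59 of 6793 at stages 12, 14 and 16. Among the 1362 models lost and not restored, which met every bound but that on the tailbud, they were 14, 27 and 24. The members were likewise not listed at 0 through the trough, with 57 of the 60 above 0 at all of these stages. The exceptions, named because they are so few, were XeXenL6RMv10033783m, listed at 0 at stages 12 and 16 with 14.4 TPM at stage 14 between them, XeXenL6RMv10004712m, listed at 0 at stage 14, and XeXenL6RMv10007856m, listed at 0 at stage 16 and also at stage 6. The rule favours each tailbud stage standing above each of stages 12, 14 and 16, an order that was not counted in other models. It was seen in 59 of the 60 members. XeXenL6RMv10033783m was the other one, with tailbud values of 50.3, 5.86, 29.5 and 27.8 TPM, the second of them below its 14.4 TPM in the trough.

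XeXenL6RMv10025749m had both the highest B and the highest tailbud level relative to B. Its early values, in stage order as for all members below, were 409, 289, 78.3, 290 and 394 TPM, and its blastula values 376, 240 and 329 TPM. Gastrula values were 108 and 69.9 TPM, and neurula values 69.7, 79.0, 197 and 363 TPM. In the tailbud it reached 1164, 1310, 2726 and 2578 TPM. All 4 tailbud libraries lay above every earlier library, and among the members this was the only one with all 4 tailbud stages at B or more. Stage 18, whose column lacks the suffix rr, already stood above both gastrula libraries.

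The second member by B, XeXenL6RMv10037273m, returned towards its blastula level without passing it. Its early values were 128, 112, 61.7, 144 and 132 TPM, and its blastula values 172, 121 and 156 TPM. Gastrula values were 80.1 and 45.8 TPM, and neurula values 36.5, 20.5, 27.3 and 45.4 TPM. The tailbud values of 65.8, 98.2, 94.3 and 143 TPM approached those of the blastula, and only that of stage 33 lay within their range.

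XeXenL6RMv10040020m had the next highest tailbud level relative to B, a mean of 136% of B. Blastula values were nearly equal at 85.3, 85.3 and 84.2 TPM, after 64.8, 70.5, 31.5, 98.5 and 111 TPM in the early libraries. It stood at 43.9 and 19.5 TPM in the gastrula, at 21.1, 14.8, 20.4 and 28.8 TPM in the neurula, and at 72.4, 106, 113 and 170 TPM in the tailbud. The blastula and neurula libraries did not overlap, an order that the rule favours. Of the tailbud libraries, 3 lay above all those of the blastula. XeXenL6RMv10055209m, XeXenL6RMv10012910m, XeXenL6RMv10014599m and XeXenL6RMv10007856m also had tailbud means above B, at 124%, 116%, 104% and 102% of it.

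**Figure D3:**
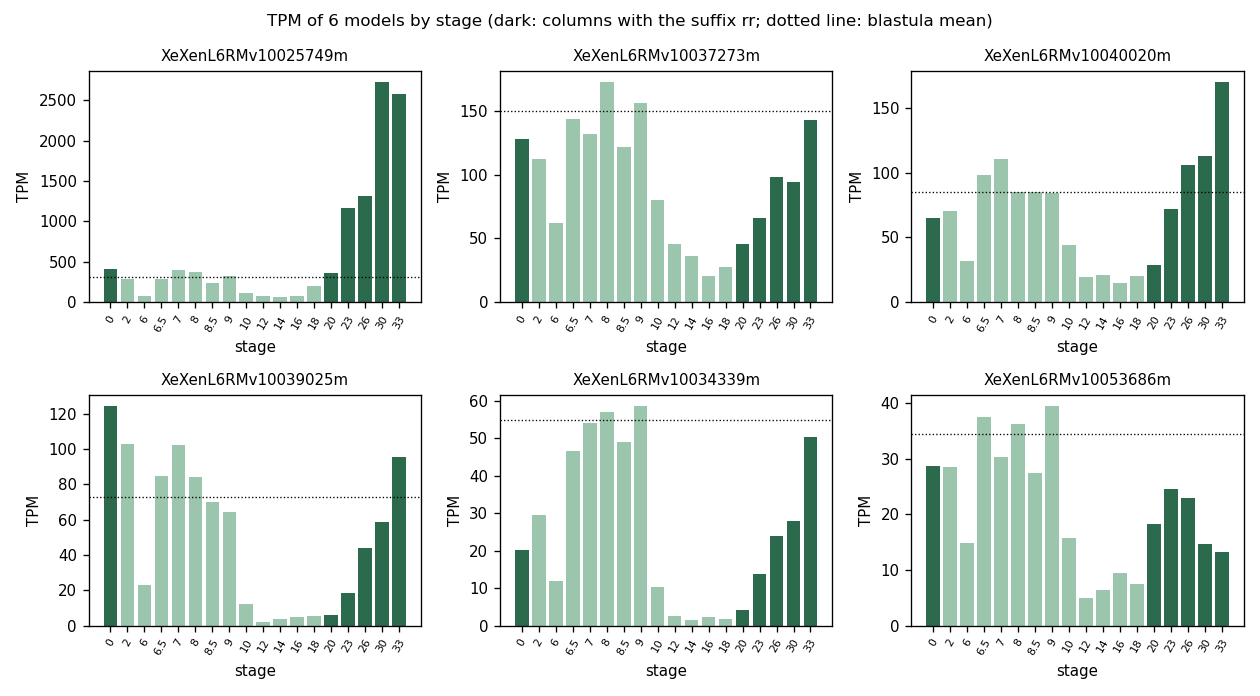
TPM of 6 named members by stage, 1 bar per library, with dark bars for columns with the suffix rr and a dotted line at the blastula mean B. XeXenL6RMv10025749m reaches 2726 TPM at stage 30 against a B of 315 TPM, XeXenL6RMv10039025m and XeXenL6RMv10034339m stay under 6 TPM from stage 12 to stage 20, and XeXenL6RMv10053686m stands at 24.5 TPM at stage 23 and 13.2 TPM at stage 33.

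Stage 10, the onset of gastrulation and outside the rule, lay between the high and the low stages. All 60 members stood lower there than at each of stages 8, 8.5 and 9, as did 90.3% of the models with a B of 30 TPM or more, and 54 of the 60 stood higher there than at each of stages 12, 14 and 16, as did 45.0% of those models and 89.3% of the 1362 models lost and not restored, which met every bound but that on the tailbud. At stage 10, 11 members (18.3%) were at 50% of B or more, 40 between 25 and 50% and 9 (15.0%) at 25% or less. The shares at 50% or more and at 25% or less were 20.5% and 33.0% of the models lost and not restored. Of the models with a B of 30 TPM or more they were 48.4% and 13.4%. From stage 9 to stage 10, 47 of the 60 were lower by more than 2-fold on the log2(TPM + 1) scale and 0 higher, against 53.9% and 2.83% of 11007 models that averaged 10 TPM or more. With the median difference of those models, -1.06, taken off, 7 of 60 and 8.95% were lower by more than 2-fold. A 2-fold decrease at this step was thus near the background after centring, and part of the low TPM at stage 10 was common to most models.

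In libraries that the rule did not use, the members stood lower in late neurula than in the cleavage stages. Stages 18 and 20 were compared with stages 2, 6, 6.5 and 7 by limma (two-sided, Benjamini-Hochberg adjustment over all 20206 models tested), in which the spread is that between stages and not between replicates. All 60 members passed the filter of 1 TPM in 2 of the 6 libraries, 26 were called lower at adjusted p under 0.05 and 0 were called higher, and 34 were lower at an unadjusted p under 0.05. Of all models tested 25.6% were called lower and 24.7% higher. The difference was negative in 59 of the 60 members, with a median of -1.29 on the log2 scale and a range from -3.38 to 0.24, beside a median of -0.28 over all models. In 57 members both late libraries lay below each of stages 2, 6.5 and 7, and in 33 below stage 6 as well, against 64.0% and 42.8% of the models with a B of 30 TPM or more. These 6 libraries adjoin the ones used by the rule, so a member that stays near its neighbouring stages is lower here by choice.

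The count turned on single libraries and on the scaling. Leaving out stage 2, 6, 6.5, 7, 18 or 20 gave 13, 52, 14, 16, 3 and 10 members in that order, while the share of all models tested that was called lower went to 21.4, 42.1, 20.4, 21.1, 11.3 and 15.6%. Without stage 2 the members' share, 21.7%, was thus near the background, and without stage 18 their 5% was below it. The last of these fits is also the one with only the columns that lack the suffix rr, and there the members' share was 16.7%. Without stage 6.5 or 7 the members' shares, 23.3 and 26.7%, were a little above the background of 20.4 and 21.1%. Without stage 6 their share was 86.7%, against 42.1%. Under spike-in scaling the members' share was 14 of 60 against 19.3%. The balance of calls over all models was 5169 lower and 4997 higher as deposited. It was 8634 and 5449 after rescaling without the on/off pair, and 3876 and 6743 under spike-in scaling. No member was called higher in these fits, and the rule made such a call unlikely.

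The largest fall among the members called belonged to XeXenL6RMv10039025m. It stood at 103, 22.7, 85.0 and 102 TPM at stages 2, 6, 6.5 and 7 and at 5.26 and 5.86 TPM at stages 18 and 20. The difference by limma was -3.38 ± 0.66 (SE) on the log2 scale (adjusted p = 0.00342, n = 4 and 2 stages), and the 2 groups did not overlap. The egg library held 125 TPM, the blastula libraries 84.3, 70.1 and 64.3 TPM, the library of stage 10 12.4 TPM, the trough 2.20, 3.56 and 5.05 TPM, and the tailbud libraries 18.6, 44.0, 58.4 and 95.5 TPM. The tailbud values climbed with each stage sampled and ended above the 3 blastula values.

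XeXenL6RMv10034339m had the next largest fall, with a difference of -3.12 ± 0.65 (SE; limma adjusted p = 0.00498). It stood at 29.5, 11.8, 46.6 and 54.1 TPM at stages 2, 6, 6.5 and 7, and at 1.66 and 4.06 TPM at stages 18 and 20. Both stayed lower at stages 18 and 20 in all 16 alternatives. The differences ran from -3.89 to -2.79 for XeXenL6RMv10039025m and from -3.8 to -2.23 for XeXenL6RMv10034339m. Both were picked as the largest falls among the members called in this same comparison, so these outcomes are favoured by the pick. XeXenL6RMv10034339m had 57.0, 49.1 and 58.7 TPM in the blastula, 2.64, 1.35 and 2.17 TPM in the trough, and 13.8, 24.0, 28.0 and 50.2 TPM in the tailbud, where the last value alone lay within the blastula range.

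Beside models with the same early course that were not restored, the members stood closer to B at stages 18 and 20. Of the 1362 models that met the bounds on B, stage 0 and trough but had a tailbud mean under 50% of B, 1361 were tested in the same comparison, 1229 (90.3%) were called lower and their median difference was -2.52, against 43.3% and -1.29 for the members. Their median level was 11.4% of B at stage 18 and 14.0% at stage 20, against 24.7% and 36.4% for the members. At stage 10 the medians were 33.3% and 36.5%, and at stage 6.5 they were 108% and 104%. The members' trough, which the rule bounds in both sets, was also higher, with a median of 17.1% against 12.8%. These are descriptions of 2 sets picked apart by their tailbud level, and the difference between the sets was not tested.

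Some members stood above the trough before the tailbud. Stage 18 stood above the trough mean in 47 of the 60 and above every trough stage in 33, and stage 20 above every trough stage in 51. The corresponding shares of the models with a B of 30 TPM or more were 50.6%, 29.5% and 41.2%, and those of the models lost and not restored 49.7%, 29.4% and 45.5%. Members stood higher at stage 18 than at stage 16 in 44 cases (73.3%), against 51.7% of the models lost and not restored and 51.9% of those with a B of 30 TPM or more. The shares in the same order were 91.7%, 74.1% and 62.8% from stage 18 to stage 20, and 95.0%, 45.6% and 36.0% from stage 20 to stage 23. Stages 16 and 23 were used by the rule, which asked for a low level at the one and a high level at the other. Only the step from 18 to 20 uses no stage of the rule. It lies between stages bounded low and high, and stage 20 shares the suffix rr with the tailbud columns. A rise at this step is thus favoured by the choice and is not independent of it. At that step the number of models listed at 0 in the whole table went from 9322 to 6491, and its part in the members' levels was not tested.

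Steps of more than 2-fold were a minority. From stage 18 to stage 20, 10 of the 60 members were more than 2-fold higher on the log2(TPM + 1) scale and 0 more than 2-fold lower, against 4.16% and 0.918% of 11007 models, 5.65% higher among the models lost and not restored, and 1 of 37 spike-ins higher. With the median difference of 0.14 taken off, the counts were 8 of 60 and 2.85%. From stage 16 to stage 18, both in columns without the suffix, 9 members were more than 2-fold higher and 1 lower, against 2.04% and 1.47% of models and 0 spike-ins. From stage 20 to stage 23, both in columns with the suffix, 18 were higher and 0 lower, against 4.11% and 3.85% of models, and 0 spike-ins were higher. The rule asked for a low level at stage 16 and a high one at stage 23, so the counts of these last 2 steps are descriptions. The step from 18 to 20 lies between those stages, so a rise there is favoured by the choice as well.

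**Figure D4:**
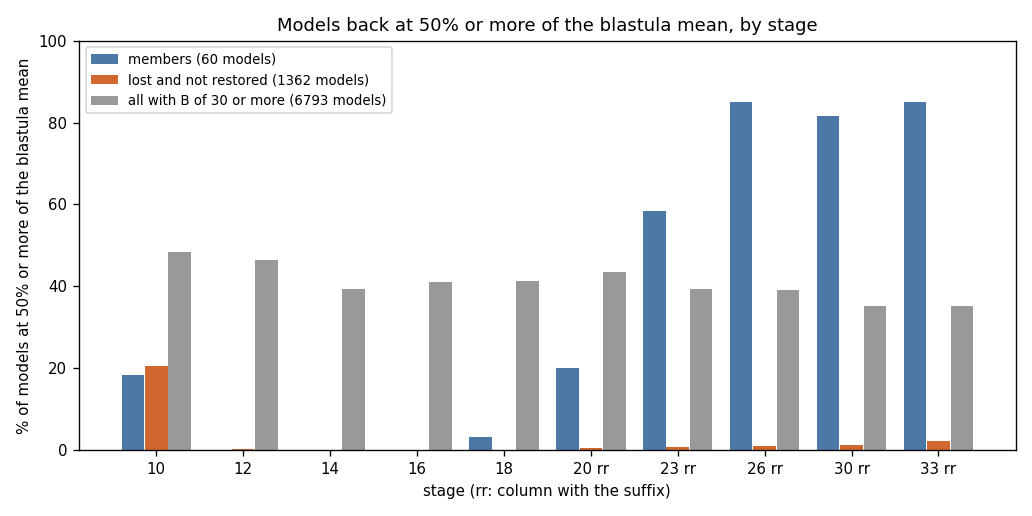
Share of models at 50% or more of the blastula mean B at each stage from 10 on, for the 60 members, the 1362 models lost and not restored and all 6793 models with a B of 30 TPM or more. Columns with the suffix are marked rr; among the members the share is 3.33, 20.0, 58.3 and 85.0% at stages 18, 20, 23 and 33.

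The first stage at 50% of B or more, from stage 18 on, was stage 18 for 2 members, 20 for 10, 23 for 23, 26 for 18 and 30 for 7. The rule bounds the mean from stage 23 on high, so this order follows in part from the choice. At stages 18 and 20, 3.33 and 20.0% of members were at 50% or more. The shares were 41.3 and 43.4% of models with a B of 30 TPM or more, and 0.0734 and 0.587% of models lost and not restored. The 2 earliest were XeXenL6RMv10025749m, at 62.7% of B at stage 18, and XeXenL6RMv10042539m, at 61.7%. XeXenL6RMv10042539m stood at 32.5, 39.5 and 30.1 TPM in the blastula, at 9.05, 4.07 and 10.9 TPM in the trough, and at 21.0 and 23.7 TPM at stages 18 and 20. Its tailbud values of 21.6, 30.1, 12.5 and 22.6 TPM lay on either side of those, the lowest of them close to its 10.9 TPM at stage 16. Neither of these 2 members passed the comparison of stages 18 and 20 with the cleavage stages (limma adjusted p = 0.791 and 0.83), with differences of 0.24 ± 0.70 and -0.16 ± 0.55 (SE). Both were picked for a level of 50% of B or more at stage 18, a stage of that comparison, so this outcome is favoured by the pick.

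XeXenL6RMv10053686m was the one member at most 25% of B at stage 18 and at 50% or more at stage 20. Its values from stage 16 to stage 23 were 9.42, 7.54, 18.2 and 24.5 TPM, beside blastula values of 36.4, 27.4 and 39.6 TPM. Later tailbud values were 23.0, 14.7 and 13.2 TPM, so its highest level after the trough lay at stage 23. Its difference between stages 18 and 20 and the cleavage stages, -1.10 ± 0.53 (SE), did not pass (limma adjusted p = 0.12). This member was picked on its levels at stages 18 and 20, so the outcome is not independent of the pick.

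At the other end, 15 of the 60 members were at 25% of B or less at stage 20, against 30 at stage 18. The shares at stages 20 and 18 were 31.3% and 35.4% of the models with a B of 30 TPM or more. Of the models lost and not restored they were 81.9% and 90.9%. At stage 20 the members' share was thus below that of both sets, though near that of the models with a B of 30 TPM or more. At stage 18 the members' share lay between those of these sets. Stage 20 adjoins the tailbud stages, whose mean the rule bounds high, so few low members there are favoured by the choice. The differences between the sets were not tested. Of the 15 members, the one with the highest B was XeXenL6RMv10047152m. It stood at 148, 95.5 and 146 TPM in the blastula and at 53.6 and 51.5 TPM in the gastrula. Its neurula values were 21.9, 19.7, 31.3 and 29.8 TPM. Its tailbud values were 74.8, 89.6, 116 and 163 TPM, each above the one before, and stage 20, the one neurula column with the suffix, held slightly less than stage 18. The difference between stages 18 and 20 and the cleavage stages was -1.70 ± 0.64 (SE) and did not pass (limma adjusted p = 0.0555). This member was picked for levels of 25% of B or less at stages 18 and 20, so a negative difference is favoured by the pick.

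Many members that were low at stage 20 had their highest tailbud value at the last stage sampled. The highest tailbud stage was stage 33 in 25 members, stage 30 in 16, stage 26 in 9 and stage 23 in 10, and 13 members had higher values at each successive tailbud stage. The 25 that peaked at stage 33 had medians of 26.8, 46.2 and 91.4% of B at stages 20, 23 and 33. The 10 that peaked at stage 23 had medians of 52.7, 70.9 and 52.8%. Stage 33 was at B or more in 12 of the 60. The set thus held members highest at the first tailbud stage and lower after it as well as members highest at the last stage sampled. No test separates these subgroups, which were formed from the values shown.

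Averaged over the cleavage stages, most members stood near their stage 0 level, which the rule held within 3-fold of B. At stage 6 alone the median member was at 38.2% of B. The mean over stages 2, 6, 6.5 and 7 was within 2-fold of stage 0 in 53 of the 60, more than 2-fold higher in 4 and more than 2-fold lower in 3, with a median ratio of 0.997 beside 0.919 in the models lost and not restored. The highest ratios were those of XeXenL6RMv10042539m, 2.24, from 12.4 TPM at stage 0 to 20.2, 13.0, 31.4 and 46.7 TPM, and XeXenL6RMv10022004m, 2.20, from 16.6 TPM to 26.3, 17.5, 47.4 and 54.8 TPM. The lowest was that of XeXenL6RMv10025579m, 0.397, from 293 TPM at stage 0 to 139, 40.9, 136 and 148 TPM. Stage 0 is the only early column with the suffix rr, and tail length, RNA amount and library cannot be told apart there.

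How far the members went down and came back depended on the scaling, and so did the order of the tailbud level and B. Over the 11007 models that averaged 10 TPM or more, the median difference between trough and B was -0.92 on the log2(mean TPM + 1) scale as deposited, so much of the low trough in TPM was shared by models at large. After median-of-ratios scaling, under which that shift was 0.23, the members' median trough was 40.1% of B and their median tailbud level 133%, and after quantile normalization 35.6% and 110%. Scaled to the spike-ins the medians were 15.1% and 163%, and after rescaling without the on/off pair 16.1% and 55.8%. Under spike-in scaling the 11007 models at large had median differences of -1.11 between trough and B and 1.41 between tailbud and trough. Part of the members' high tailbud level under that scaling was thus common to models at large. In all 60 members, under each of the 5 scalings, the trough mean was below B and the tailbud mean above the trough. The latter difference was at least 1.85-fold under quantile normalization, the lowest of the 5. The members were chosen on these same stages as deposited, so this order follows largely from the choice and is a description. The tailbud mean exceeded B in 6 members as deposited, 4 without the on/off pair, 40 after quantile normalization and 60 under both other scalings. Over the 11007 models the median difference between tailbud and B was -1.0, -1.14 and -0.32 under the first 3 of these. It was 0.05 under median-of-ratios and 0.29 under spike-in scaling, so the members' count moved along with models at large.

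**Figure D5:**
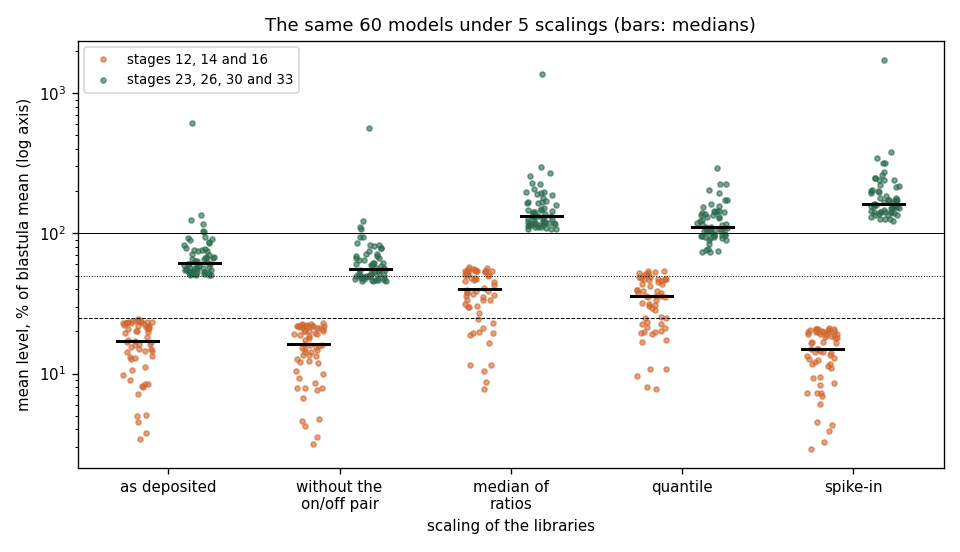
Trough mean (stages 12, 14 and 16, orange) and tailbud mean (stages 23, 26, 30 and 33, green) of the same 60 models in percent of B on a log axis under 5 scalings of the libraries, with black bars at the medians and lines at 25, 50 and 100% of B. The median trough runs from 15.1% under spike-in scaling to 40.1% under median-of-ratios scaling, and the median tailbud level from 55.8% to 163%.

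The membership also moved with the scaling. With the rule applied again, median-of-ratios scaling gave 17 models, of which 3 were among the 60, quantile normalization 31 with 11 of the 60, spike-in scaling 361 with 29 and rescaling without the on/off pair 58 with 42. These counts apply the bounds on B and stage 0 to the rescaled values as well. With the 60 models held fixed, the bounds of 25% in the trough and 50% in the tailbud were both met by 13 after median-of-ratios scaling, 19 after quantile normalization, all 60 under spike-in scaling and 42 without the on/off pair.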

How the data were processed

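The authors deposited 1 table of TPM for 31357 gene models and 88 spike-in entries in 18 libraries. The submitters' processing notes list RSEM, Bowtie, Trimmomatic and CASAVA 1.8.2, with roles and genome build not given in the sources used here. All 18 columns were matched to libraries by stage. TPM keeps no depth, so no counting interval is given, and reads of near-identical copies, common in this genome, cannot be told apart. From stage 6 on the decimals of the spike-ins point to a rescaling in classes by the authors; their values were used as deposited.

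The members and all descriptions were chosen with earlier results of these data known. The test was limma 3.58.1 (R 4.3.3) with a trended prior variance, applied to log2(TPM + 1), for models at 1 TPM or more in at least 2 of the 6 libraries; the spread is between stages. It was tested on simulated data. Steps were described for models that averaged 10 TPM or more. Members were named by rank, at most 2 for each description; those named outside these ranks were chosen after their values were seen. Alternatives were other scalings (median-of-ratios, quantile, spike-in, without the on/off pair), pseudocounts, filters, bounds and sets of libraries. Leaving out stages 2 and 6, stages 8.5 and 30, and centring the steps were added after seeing the data.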

Additional observations from a re-analysis of the deposited data

Results flagged for a closer look

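The members named by rank and the members' median were examined for a single value far from the rest. Among their 42 groups of 4 or 5 stages, 1 such value was found. The cut-offs are made for replicates, where chance gives about 1 in 20 groups. Stages are not replicates, so that rate does not apply here. XeXenL6RMv10000594m stood at 23.6 TPM at stage 6, while the other 4 early stages lay between 59.9 and 70.3 TPM. The gap was 0.778 of the whole range. A level at stage 6 below those of stages 2 and 6.5 was found in 59 of the 60 members and in 95.3% of 6793 models. Stage 6 is the library in which the on/off pair took up 42.7% of the TPM, and the pair's part in this value was not tested.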

How the results depend on the processing

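The count of members called lower at stages 18 and 20 was 26. It was 22 to 28 under both pseudocounts and both filters and 36 with median-of-ratios scaling. It moved to 40 with quantile normalization, 14 with spike-in scaling, 52 after rescaling without the on/off pair, 10 with only the columns without rr, and 55 without stages 2 and 6, and the share of all models called lower moved with it, from 25.6% to 39.0, 19.3, 42.3, 15.6 and 49.7%. Leaving out each library gave 3 to 52, against 11.3 to 42.1% of all models. The count of members called higher was 0 throughout, with a lowest and highest value of 0, and the rule made such a call unlikely. Only the 13 members named by rank were followed through the alternatives. XeXenL6RMv10025749m, not called at 0.24, changed sign to -0.56 with quantile normalization and -0.09 without the on/off pair. With only the columns without rr (the same fit as without stage 20) it was -0.19. It was -0.34 without stages 2 and 6 and -0.26 without stage 6. The last was the lowest of its 6 values with a library left out, and 0.68, without stage 18, the highest. XeXenL6RMv10042539m, not called at -0.16, changed sign to 0.35, 0.22 and 0.43 with median-of-ratios, quantile and spike-in scaling and to 0.13 without stage 7, against -0.46 without stage 6 at the other end. The call of XeXenL6RMv10025579m was lost in 8 of 16 alternatives, that of XeXenL6RMv10037273m in 7 and that of XeXenL6RMv10000594m in 3. Of the members not called, XeXenL6RMv10047152m and XeXenL6RMv10040020m were called lower in 6 alternatives each, XeXenL6RMv10053686m, XeXenL6RMv10022004m, XeXenL6RMv10050704m and XeXenL6RMv10042670m in 3 each and XeXenL6RMv10042539m in 1.

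With the rule applied again, 5 counts were followed: members, those at 50% of B at stage 18, those at 50% at stage 20, those at 25% or less at stage 10, and those more than 2-fold higher at stage 20 than at 18. As deposited they were 60, 2, 12, 9 and 10. They were 17, 0, 1, 0 and 1 with median-of-ratios scaling, 31, 1, 5, 2 and 1 with quantile normalization, 361, 5, 184, 55 and 208 with spike-in scaling, and 58, 4, 17, 4 and 9 without the on/off pair. With B of 10 TPM or more they were 170, 9, 41, 42 and 32, and with 100 TPM they were 5, 1, 1, 0 and 0. A trough of at most 10% gave 12, 0, 0, 4 and 2, one of at most 50% gave 284, 72, 147, 21 and 23, and a tailbud bound of 100% gave 6, 1, 1, 1 and 0. Without stages 8.5 and 30 they were 59, 1, 12, 14 and 10. Leaving out each library of the rule gave 55 to 106 members, the highest without stage 0, and 1 to 7, 9 to 23, 5 to 17 and 8 to 17 for the other counts. Wider bounds admit more models. Spike-in scaling raises every model from stage 18 to stage 20, where the spike-in portion of the TPM fell from 5.51% to 3.15%. Beyond these points the cause of the moves was not tested. Unknown depth limits every low value.

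No paired analysis was possible because each stage has 1 library and the labels give no replicate numbers.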
